A study of Mus musculus with 18 samples.

Results

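Mbp, Mobp, Mal, Cldn11, Cnp, Mag, Mog and Opalin encode proteins of compact myelin and of the membranes that border it in the central nervous system. They were followed through the differentiation of control and HPRT-knockdown mouse embryonic stem cells. The 8 genes were selected on the comparison of knockdown and control cells at the final neuronal stage, with its result known. Signals of that stage are therefore given as a description with no test, and tests are limited to the earlier stages. On the Illumina MouseWG-6 v2 array, 21 of the 45281 probes carry these 8 symbols (of 30869 distinct symbols), with 5 probes each for Mbp and Mobp, 3 for Mal, 2 each for Mag, Cnp and Mog, and 1 each for Opalin and Cldn11. Of the 21 probes, 18 were detected on all 3 arrays of at least 1 condition, as were 23172 probes of the whole array.

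The cells are of the ESD3 line, derived from mouse strain 129s2/SvPas and kept on embryo fibroblast feeders before differentiation. Control cells carried a viral shRNA against luciferase and knockdown cells a viral shRNA against HPRT, and both were selected with puromycin. RNA was taken at the undifferentiated embryonic stage (ES), at the stage of spherical neural masses (SNM) and at the final stage of a dopaminergic differentiation (neuronal), so that 18 arrays cover 6 conditions with 3 arrays each. Cultures of a condition were pooled before hybridisation, which makes its 3 arrays repeats of 1 RNA pool, so every SD and adjusted p-value measures array error and not the spread between cultures. The knockdown was present on the brightest of the 3 probes of the HPRT gene, listed as Hprt1, whose log2 signal in knockdown cells was 7.95 (ES), 9.44 (SNM) and 6.60 (neuronal), against 12.04, 11.20 and 11.05 in control cells. Levels are bead signals corrected for background, quantile-normalized and given as log2 values after an offset of 16 was added, which compresses changes of dim probes. A probe counts as detected at a detection p-value under 0.05, and each array detected 18827 to 22202 probes. A probe was called where limma gave a Benjamini-Hochberg adjusted p-value under 0.05 over all probes tested together with a change of at least 1.5-fold.

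Myelin is the spirally wrapped membrane that oligodendrocytes, the myelinating glia of the brain and spinal cord, lay around axons. In its compact part the layers adhere closely, with Mbp and Mobp at their cytoplasmic faces and claudin tight junctions between neighbouring turns, whereas Cnp, Mag, Mog and Opalin lie in cytoplasm-rich or surface membranes. Oligodendrocyte precursors switch these genes on together as they mature, and Mog is known as a late member of the series.

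The sequence before the transcription start is printed for 4 of the genes, because these differ in how their signal moved between the ES and SNM stages. On the brightest probe of each, Mag and Cldn11 rose in both cell types, Opalin rose in control cells, and Mobp was called lower in knockdown cells. Such RefSeq windows (GRCm38.p6) were read for 7 of the 8 genes, and none was read for Mbp. Each line holds the 250 bases upstream of the start, 5′ to 3′ on the strand of the gene, with matches to the core ACAAAG bound by SOX factors, read on either strand, in capitals. The Mag window, 1 of 3 listed for that gene, lies at chr7:30914864-30915113 on the minus strand, that of Opalin at chr19:41077114-41077363 on the minus strand, that of Mobp at chr9:120149492-120149741 on the plus strand and that of Cldn11 at chr3:31149670-31149919 on the plus strand.
Mag: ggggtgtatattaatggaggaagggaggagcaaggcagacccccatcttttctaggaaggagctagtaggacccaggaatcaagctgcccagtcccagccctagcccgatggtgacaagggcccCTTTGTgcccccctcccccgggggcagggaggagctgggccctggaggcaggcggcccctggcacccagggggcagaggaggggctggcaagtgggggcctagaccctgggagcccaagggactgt
Opalin: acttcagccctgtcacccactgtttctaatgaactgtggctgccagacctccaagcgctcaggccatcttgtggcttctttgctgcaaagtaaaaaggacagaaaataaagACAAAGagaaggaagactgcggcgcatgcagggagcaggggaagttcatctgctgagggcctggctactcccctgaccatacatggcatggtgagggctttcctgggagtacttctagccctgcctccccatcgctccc
Mobp: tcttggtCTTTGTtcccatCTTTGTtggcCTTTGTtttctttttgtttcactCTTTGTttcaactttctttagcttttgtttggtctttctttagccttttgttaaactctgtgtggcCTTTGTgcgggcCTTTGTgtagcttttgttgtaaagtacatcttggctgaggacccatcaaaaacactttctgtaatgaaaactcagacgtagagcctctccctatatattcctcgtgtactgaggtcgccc
Cldn11: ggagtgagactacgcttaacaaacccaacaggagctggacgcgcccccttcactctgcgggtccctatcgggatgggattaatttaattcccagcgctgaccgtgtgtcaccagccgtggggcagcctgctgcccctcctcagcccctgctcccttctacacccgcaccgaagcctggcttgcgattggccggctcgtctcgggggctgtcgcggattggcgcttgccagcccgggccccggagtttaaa

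The SOX core was found in 5 of the 9 windows read, which belong to 4 of the 7 genes (Mag, Mobp, Cnp and Opalin). Of all 32851 windows of this length, 16.5% hold it. The Mag windows that hold it overlap and share 1 match, which lies 126 bases before the start in the window shown, and that of Opalin lies 139 bases before the start. The Mobp window holds 6 matches, all read as CTTTGT, and it is the 1 window of 32851 with 6 or more; this number was looked up after the window had been read. No window of these 7 genes, which leave out Mbp, holds the E-box CAGCTG, which 13% of all windows hold. A match is a string of letters and not a measured binding site, and its absence says only that the letters are not in the window.

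In control cells, the myelin genes were low at the ES stage, where the brightest probes of 5 of 8 were not detected on every array, and 5 of them had risen by the SNM stage, with the largest fitted rises for Mbp and Cldn11. In knockdown SNM cells the signals of Mbp, Mag, Opalin and Cldn11 were lower than in control SNM cells, and that of Mal was higher, while Cnp and Mobp differed by less than 1.5-fold and Mog was near background. At the neuronal stage each of the 8 genes had its highest level of all 6 conditions in the knockdown cells. Control cells, in contrast, had less of Mbp, Mag, Opalin and Cnp at the neuronal than at the SNM stage, while their Cldn11 rose further.

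**Figure D1:**
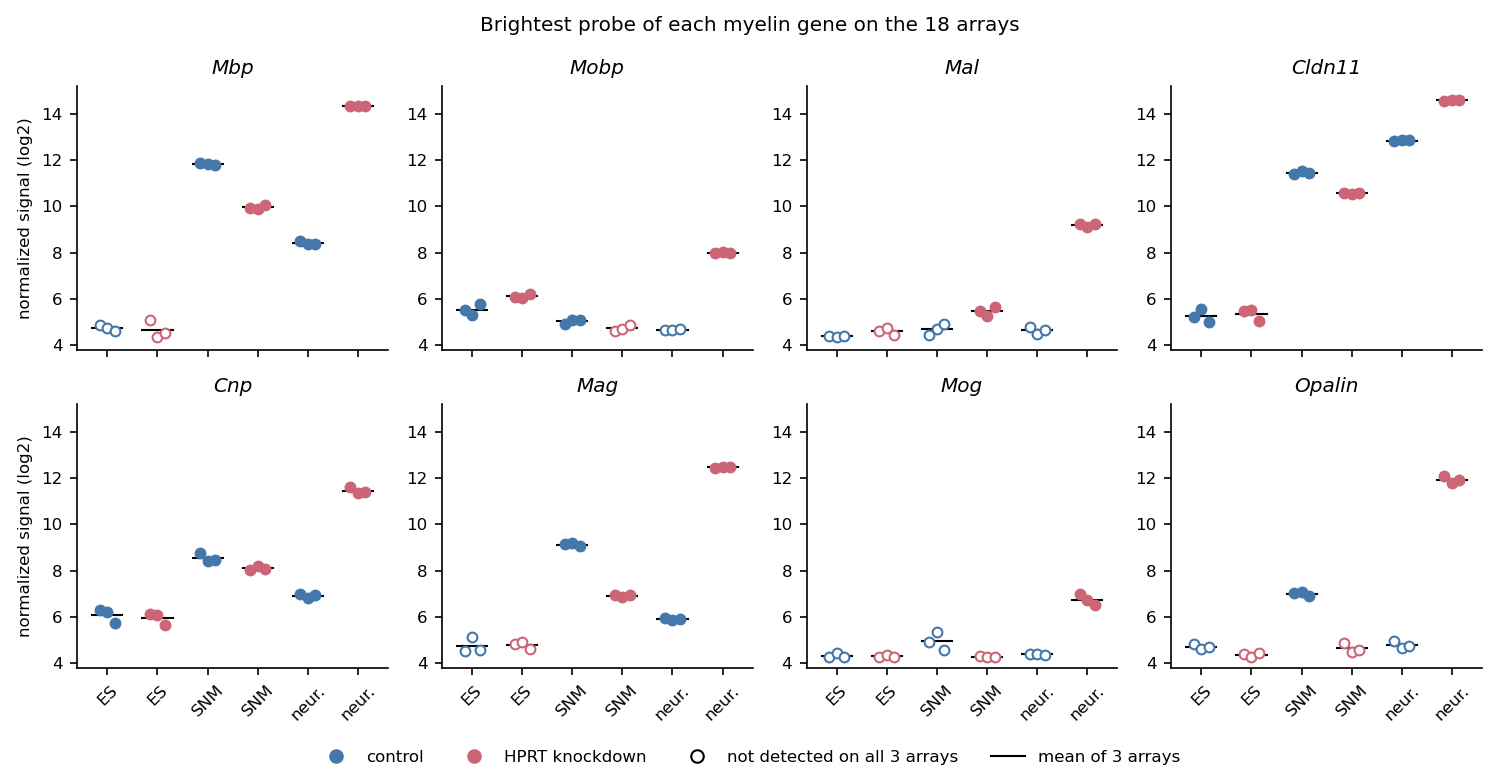
Normalized log2 signal (vertical axis) of the brightest probe of each gene on each of the 18 arrays, by stage and cell type (horizontal axis), with filled points for a probe above background on all 3 arrays of the condition, open points otherwise, and a line at the mean of 3 arrays. Each gene is highest on the 3 knockdown neuronal arrays, and Mbp, Mag, Cldn11 and Opalin lie lower in knockdown than in control cells at the SNM stage.

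At the ES stage, 3 of the 8 genes were detected well enough to be tested on their brightest probe, and none was called in either direction by limma or by the methods' t-test, before or after adjustment, at 1.5-fold. Among all 18411 probes tested, 0.516% were called higher in knockdown cells. Cnp, whose brightest probe was detected in both cell types, had log2 signals of 6.32, 6.21 and 5.75 on the control arrays and 6.12, 6.08 and 5.67 on the knockdown arrays (difference -0.14, standard error 0.15, adjusted p = 0.616 from limma). The groups overlapped, as did those of Cldn11 (5.26 ± 0.30 in control and 5.35 ± 0.28 in knockdown cells, SD, n = 3 arrays, adjusted p = 0.701 from limma). The brightest Mbp probe was detected on 1 of 3 arrays in either cell type, Mag likewise on 1 of 3, and Mog, Opalin and Mal on none, so that these probes could not be tested in undifferentiated cells. The third Mbp probe was detected on all ES arrays of both cell types and differed by -0.10 (standard error 0.08, adjusted p = 0.49 from limma).

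Mobp, a small basic protein of compact myelin, was the member with a difference at the ES stage. Its brightest probe read 5.5, 5.31 and 5.77 in control and 6.06, 6.05 and 6.20 in knockdown ES cells, and all knockdown arrays lay above all control arrays. The difference of 0.58 (standard error 0.10, adjusted p = 0.00116 from limma) is 1.49-fold and just misses the required fold. The probe for transcript variant 1 passed it, with 5.05, 5.39 and 5.59 in control and 6.07, 6.05 and 6.16 in knockdown cells (difference 0.76, adjusted p = 0.00137 from limma). A probe for variant 3 also passed it, with a mean of 5.21 in control and 5.83 in knockdown cells (fitted difference 0.61, at least 1.52-fold, adjusted p = 0.0256 from limma), detected on 2 of 3 control arrays. These were the 2 of 8 tested member probes that were called at this stage, and a further variant 3 probe differed by 0.57, or at least 1.47-fold (adjusted p = 0.00748 from limma). The signals are low on the scale of the array, with raw intensities of 79.0 to 97.6 in control and 104.4 to 111.1 in knockdown cells for the brightest probe. No Mobp probe was called with other normalizations, with an offset of 50, at a minimum of 2-fold or by the methods' t-test, and the difference of the brightest probe was as low as 0.23 among these.

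On their brightest probes, 5 of the 6 genes tested rose in control cells from the ES to the SNM stage and none was called lower. Of all probes in that comparison, 23.7% were called higher and 25.4% lower. The median change of the 6 genes was 3.42 on the log2 scale (3.31 with genes below background at their lower bound), beside -0.08 over all 20703 probes tested. A gene that was at background in ES cells could enter this test only through a signal in SNM cells, so this count carries a filter. In knockdown cells 5 of 6 genes rose and 1, Mobp, fell, against 26.4% of all probes called higher and 30.9% called lower. The median change there was 2.14 (2.05 with bounds), beside -0.11 over all 21467 probes tested.

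Mbp, the myelin basic protein on chromosome 18, rose by several log2 units in both cell types on its brightest probe. Its brightest probe, for transcript variant 7, read 4.89, 4.76 and 4.63 in control ES cells and 11.87, 11.85 and 11.79 in control SNM cells, which is at least 125-fold (fitted rise 7.08, adjusted p = 1.54e-16 from limma). In knockdown cells it read 5.08, 4.36 and 4.51 and then 9.94, 9.89 and 10.04, at least 31.8-fold (fitted rise 5.31, adjusted p = 1.89e-15 from limma). Such bounds hold for this normalization only, and without background correction the rise was as small as 5.41 in control and 3.63 in knockdown cells. No ES array reached any SNM array. The 3 knockdown SNM arrays all lay below the control SNM arrays, by 1.88 in the mean (standard error 0.13, adjusted p = 7.58e-09 from limma). This is 72.9% less signal.

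Cldn11, the claudin of myelin tight junctions on chromosome 3, followed with 11.38, 11.53 and 11.45 in control and 10.58, 10.54 and 10.58 in knockdown SNM cells. From the ES stage this was a rise of 6.19 in control and 5.21 in knockdown cells (standard error 0.13 each, adjusted p = 4.66e-16 and 2.09e-15 from limma), and as little as 4.87 and 3.91 without background correction. Knockdown SNM cells had 45.9% less signal than control SNM cells (difference -0.89, adjusted p = 2.77e-05 from limma), a change between the 1.5-fold required here and 2-fold.

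Mag, the myelin-associated glycoprotein that faces the axon, is encoded on chromosome 7. At the SNM stage its annotated probe read 9.14, 9.18 and 9.06 in control and 6.96, 6.85 and 6.93 in knockdown cells. The groups were far apart, 78.5% lower in knockdown cells (difference -2.21, standard error 0.12, adjusted p = 3.61e-10 from limma). Against ES cells, in which 1 of 3 arrays detected it, the signal was at least 18-fold higher in control and at least 3.89-fold higher in knockdown SNM cells (fitted rises 4.38 and 2.13, adjusted p = 8.57e-15 and 5.42e-11 from limma). Without background correction these rises were as small as 2.86 and 1.02.

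Opalin, a transmembrane sialoglycoprotein of oligodendrocytes encoded on chromosome 19, had the largest fitted difference between the cell types at the SNM stage. It read 7.02, 7.06 and 6.89 in control SNM cells and 4.86, 4.49 and 4.56 in knockdown SNM cells, where 1 of 3 arrays detected it. Control cells were thus at least 4.77-fold higher than knockdown cells (fitted difference -2.35, standard error 0.11, adjusted p = 5.13e-11 from limma). Without background correction the difference was as small as -1.29. In control cells the rise from the ES stage was at least 4.36-fold (fitted rise 2.28, as small as 1.05 without background correction, adjusted p = 8.4e-12 from limma), whereas in knockdown cells the gene was not detected on all arrays at either stage and its rise was not tested.

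Cnp, the cyclic nucleotide phosphodiesterase of non-compact myelin on chromosome 11, rose in both cell types and differed less between them. Its brightest probe read 8.78, 8.41 and 8.44 in control and 8.05, 8.22 and 8.06 in knockdown SNM cells. All knockdown arrays lay below all control arrays, but the difference of -0.43 (standard error 0.15, adjusted p = 0.0204 from limma) is under 1.5-fold, and the second Cnp probe differed by -0.34 (standard error 0.08, adjusted p = 0.00205 from limma). The rise from the ES stage was 2.45 in control and 2.15 in knockdown cells on the brightest probe (adjusted p = 2.12e-10 and 8.28e-10 from limma), but 0.64 and 0.32 on the second, of which only the first passes the fold. Without background correction the rises of the brightest probe were as small as 1.83 and 1.5.

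Mog, the oligodendrocyte glycoprotein of the outermost myelin surface on chromosome 17, was barely above background at the SNM stage. The brightest probe read 4.91, 5.35 and 4.59 in control SNM cells, detected on 2 of 3 arrays, and 4.31, 4.28 and 4.27 in knockdown SNM cells, detected on none, and was not tested. The second probe was detected on all control arrays at 5.16, 4.92 and 4.95 and on no knockdown array, where it read 4.35, 4.37 and 4.4. By that probe, control cells were at least 1.26-fold higher (fitted difference -0.64, standard error 0.09, adjusted p = 1.66e-05 from limma).

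Mal and Mobp did not follow the others at the SNM stage. Mal, a small proteolipid of myelin membranes and membrane traffic on chromosome 2, read 4.45, 4.69 and 4.92 in control and 5.49, 5.24 and 5.67 in knockdown SNM cells. It was higher on every knockdown array, at least 1.55-fold (fitted difference 0.78, standard error 0.13, adjusted p = 8.25e-05 from limma), with 1 of 3 control arrays above background. This call rests on 1 of 3 Mal probes, since the second read 4.46 ± 0.11 and 4.59 ± 0.35 (SD, n = 3 arrays) and the third was at background. Mal was also no longer called where the background correction was left out or its offset raised, when its difference lay between 0.35 and 0.43. The brightest Mobp probe read 4.93, 5.08 and 5.10 in control and 4.62, 4.69 and 4.88 in knockdown SNM cells, a difference of -0.30 (standard error 0.10, adjusted p = 0.0137 from limma) that is under 1.5-fold. Relative to its own ES level this probe fell by 1.37 in knockdown cells, or at least 2.55-fold (adjusted p = 1.14e-09 from limma). That change was as small as -0.51, with no call, where scaling was left out too. In control cells its change of -0.49 did not pass the fold (adjusted p = 0.000212 from limma). The Mobp probe for transcript variant 1, however, was called lower in control cells as well, with a change of -0.74 or at least 1.49-fold (adjusted p = 6.5e-05 from limma).

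Counted over genes, 4 of the 7 tested at the SNM stage were lower in knockdown cells (Mbp, Mag, Opalin and Cldn11) and 1 was higher (Mal). Of all 20765 probes tested, 8.9% were called lower and 11% higher. The median change of the 7 genes was -0.89, with or without bounds, beside -0.04 over all probes tested. Over probes, 8 of 14 tested were lower and 1 higher.

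The effect of the knockdown at the SNM stage differed from that at the ES stage, by a test of the difference itself, for 5 of 7 genes tested, all toward lower signal in knockdown cells. Among all 22125 probes so tested, 9.61% were called lower. Mbp, Mag and Opalin were at background in ES cells and entered the test through their SNM signal. With detection required on all arrays compared, 1 gene, Cldn11, was called. In processing without background correction the Opalin difference was as small as -1.07. The fitted differences were -2.25 for Mag, -2.02 for Opalin, -1.77 for Mbp, -0.98 for Cldn11 and -0.88 for Mobp (standard errors 0.17, 0.15, 0.18, 0.18 and 0.13). For Mobp this joins a higher ES signal with a slightly lower SNM signal of knockdown cells. Cnp differed by -0.30 (adjusted p = 0.274 from limma), and Mal by 0.58 (adjusted p = 0.0168 from limma), which is just short of 1.5-fold.

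**Figure D2:**
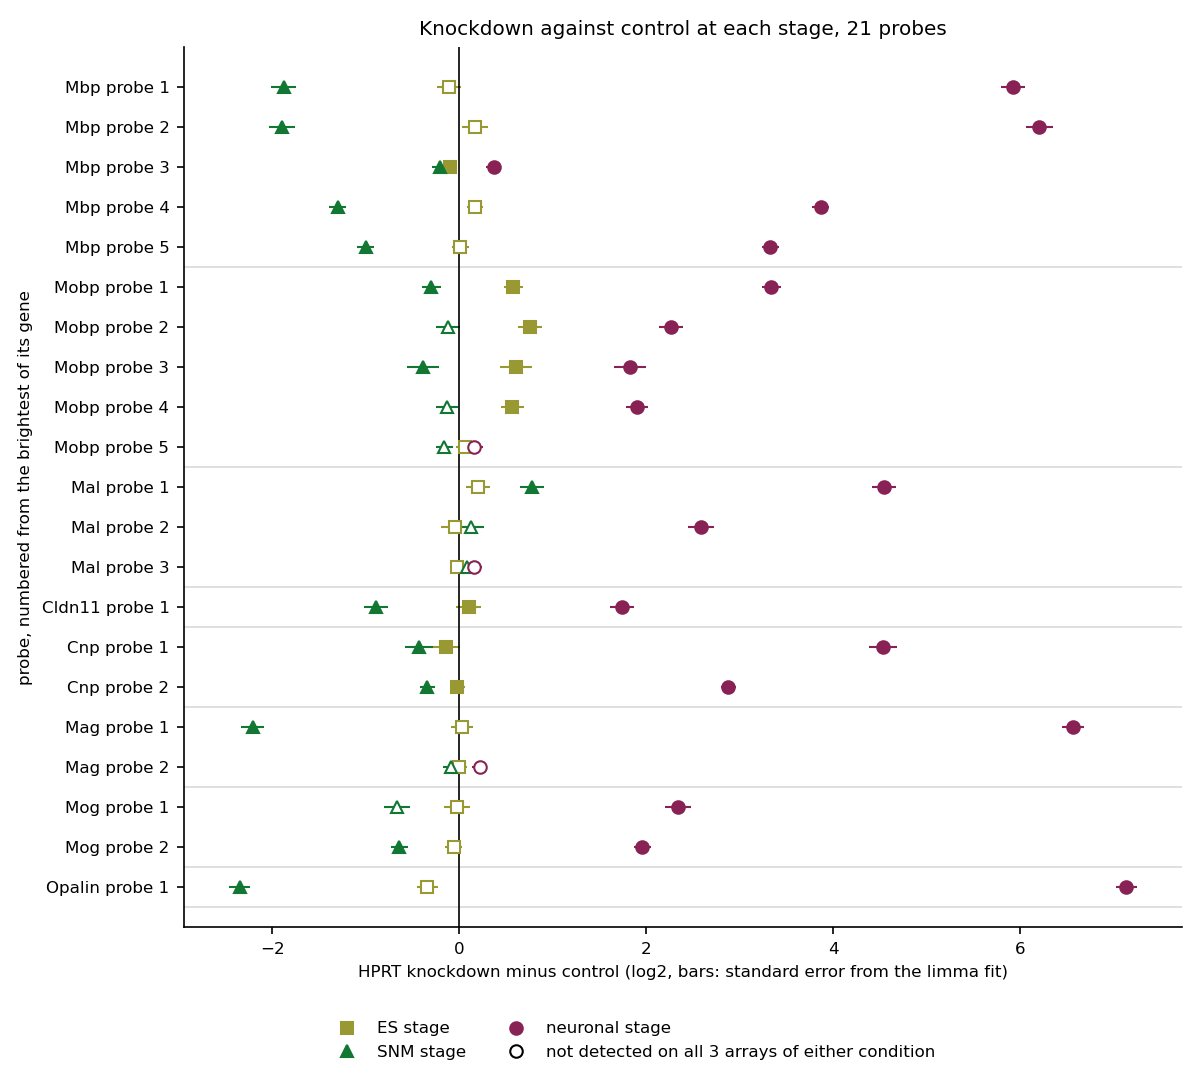
Difference between HPRT-knockdown and control cells (horizontal axis, log2) for each of the 21 probes (vertical axis, numbered from the brightest of its gene) at the ES, SNM and neuronal stages, with bars for the standard error from limma and open symbols for probes that neither condition detected on all of its arrays. Mbp, Mag and Opalin lie to the left of 0 at the SNM stage and far to the right at the neuronal stage, and the third Mbp probe stays near 0 at each stage.

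At the neuronal stage, the comparison on which the genes were selected, the signals were as follows. Mbp read 8.51, 8.36 and 8.35 in control and 14.35, 14.33 and 14.33 in knockdown cells, a difference of 5.93 or 60.9-fold. Mag read 5.94, 5.85 and 5.93 in control and 12.44, 12.49 and 12.50 in knockdown cells, a difference of 6.57 or 95.1-fold. Opalin was detected on 2 of 3 control arrays, at 4.97, 4.67 and 4.74, and read 12.09, 11.79 and 11.91 in knockdown cells, at least 139-fold higher. That bound holds for this normalization only, and with other processing the log2 difference of Opalin was as small as 5.65. These 3 genes, the lowest relative to control at the SNM stage, had the largest fitted differences above it at the neuronal stage.

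Cnp read 6.97, 6.82 and 6.95 in control and 11.62, 11.36 and 11.39 in knockdown neuronal cells, a difference of 4.54. Mal, detected on 1 of 3 control arrays at 4.80, 4.48 and 4.67, read 9.25, 9.09 and 9.25 in knockdown cells, at least 22.1-fold higher. Mobp, likewise detected on 1 of 3 control arrays, read 4.65, 4.66 and 4.69 and then 8.0, 8.03 and 7.98, at least 9.78-fold higher. With other processing the log2 differences of Mal and Mobp were as small as 3.14 and 2.07. For Cnp, Mal and Mobp no control array came within reach of a knockdown array.

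Mog crossed the detection limit in knockdown neuronal cells, with 6.97, 6.74 and 6.51 there and 4.42, 4.42 and 4.37 on control arrays, none of which detected it, a difference of at least 4.1-fold. With other processing the log2 difference of Mog was as small as 1.26. Cldn11 had the smallest fitted difference in the main processing, 1.74 or 3.34-fold. It was high in control cells as well, at 12.81, 12.86 and 12.85 against 14.57, 14.58 and 14.60. Its raw intensities in knockdown cells, 22768.6, 23248.2 and 24382.0, lie near the brightest probe of any array, which read between 24939.5 and 29569.9. The part of scanner saturation in this difference was not tested. All 8 genes and 17 of 18 tested probes were on the higher side of the thresholds, where 13.9% of all 20893 probes were. As the genes were selected on this comparison, nothing is read from that count.

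Between the SNM and neuronal stages the cell types moved apart. In control cells Mbp fell from 11.84 to 8.41, Mag from 9.13 to 5.91, Cnp from 8.54 to 6.92 and Opalin from 6.99 to 4.79, so that 4 of 6 genes past the detection filter were on the lower side and 1, Cldn11 with 11.45 and then 12.84, on the higher side (15.1% and 14.3% of all probes). In knockdown cells all 8 were on the higher side on their brightest probes (13.8% of all probes), from Opalin, at least 146-fold, to Mog, at least 4.18-fold. With other processing the log2 rises of Opalin and Mog were as small as 5.72 and 1.39. Cldn11 rose by 4.01 in knockdown and 1.39 in control cells. These comparisons use the arrays of the selecting comparison and are likewise a description.

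Ordered by level, Mbp, Mag and Cnp fell in the same sequence of conditions, from knockdown neuronal through control SNM, knockdown SNM and control neuronal to ES cells, and the arrays of neighbouring conditions overlapped only between the ES conditions. For Opalin, the 3 conditions after control SNM (control neuronal, control ES and knockdown SNM) could not be ranked, because arrays of neighbours overlapped between 4.49 and 4.97. Mog could be ranked no further than its first 2 conditions, knockdown neuronal and control SNM. Mal was second highest in knockdown SNM cells (5.46 ± 0.22) and Mobp in knockdown ES cells (6.11 ± 0.08), both SD with n = 3 arrays. Cldn11 alone among the 8 had control neuronal cells in second place.

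The probes of a gene disagreed in several cases. For Mbp, the variant 7 probe, both variant 2 probes and 1 variant 8 probe shared the direction of knockdown differences at both later stages. The 2 brightest differed by -1.88 and -1.90 at the SNM stage and by 5.93 and 6.21 at the neuronal stage. The variant 2 probes were at background on all arrays of the dimmer condition, so that knockdown cells were at least 2.18-fold and 1.82-fold lower at the SNM stage and at least 11.7-fold and 8.37-fold higher at the neuronal stage. The other variant 8 probe, the third brightest, was detected on all 18 arrays and differed little between the cell types. It read 7.44, 7.34 and 7.45 in control and 7.23, 7.25 and 7.13 in knockdown SNM cells, a difference of -0.21 (standard error 0.08, adjusted p = 0.0365 from limma) that is not called. At the neuronal stage it read 6.44, 6.54 and 6.51 in control and 6.90, 6.75 and 6.94 in knockdown cells, where the remaining variant 8 probe read 4.97 and 11.18 in the mean. From the ES to the SNM stage the third probe rose by 2.04 in control and 1.92 in knockdown cells (adjusted p = 9.78e-13 and 1.43e-12 from limma). From the SNM to the neuronal stage it changed by -0.91 in control and by -0.34 in knockdown cells, where every other Mbp probe rose. The annotation assigns both variant 8 probes to the same RefSeq record, and their sequences were not used here.

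**Figure D3:**
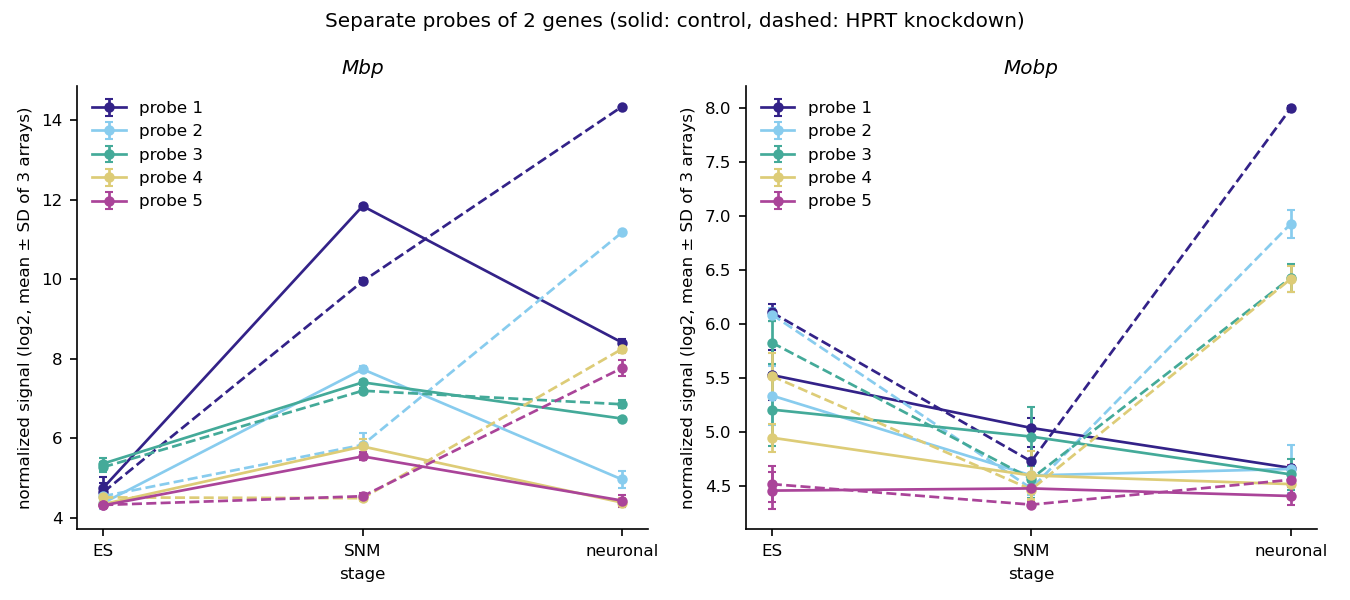
Mean normalized log2 signal with SD of 3 arrays (vertical axis) of the 5 probes each of Mbp and Mobp, numbered from the brightest, over the stages (horizontal axis), in control (solid) and HPRT-knockdown cells (dashed). The third Mbp probe keeps both cell types together at each stage, and 4 of the 5 Mobp probes dip at the SNM stage in knockdown cells.

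Among the Mobp probes, 4 of 5 showed the same course, high in knockdown ES cells, low at the SNM stage and highest in knockdown neuronal cells, where they were at least 3.28-fold to at least 9.78-fold above control, each being detected on 0 or 1 control array. The brightest of them has no transcript named in the annotation. The fifth was detected on no array, as was the third Mal probe, and the second Mag probe was detected on 1 knockdown neuronal array only. The annotation ties these Mal and Mag probes to no transcript. The Cnp probes differed in size at the neuronal stage (4.54 and 2.88). For Mal and Mog, which control neuronal cells did not detect on all arrays, the sizes are bounds, at least 22.1-fold and 4.7-fold for the Mal probes and at least 4.1-fold and 3.04-fold for the Mog probes.

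Related genes were examined by list, with the brightest probe for each gene. At the SNM stage 11% of all probes tested were called higher in knockdown cells and 8.9% lower. Of 24 other myelin sheath and paranode genes, 19 were tested at the SNM stage, 3 were higher and 6 lower in knockdown cells, with a median change of -0.04, the same as over all probes. Pllp, which encodes the myelin proteolipid plasmolipin, fell by 1.62 (adjusted p = 4.92e-10 from limma), while Plekhb1 was 1.22 higher (adjusted p = 2.61e-09 from limma). Of 6 tested myelin lipid enzymes, 4 were lower and none higher (median -0.80), among them Fa2h, the hydroxylase of myelin sphingolipids (-1.64, adjusted p = 1.65e-07 from limma), and the sulfatide sulfotransferase Gal3st1 (-1.31, adjusted p = 7.18e-08 from limma).

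Of 10 tested transcription factors of the oligodendrocyte lineage, 3 were higher and 1 lower at the SNM stage (median 0.18). The lower one was Sox10, a driver of myelin gene transcription, at 11.01 ± 0.05 in control and 9.26 ± 0.05 in knockdown cells (SD, n = 3 arrays, adjusted p = 6.25e-11 from limma), and the higher ones included Nkx6-2 (1.80, adjusted p = 1.06e-07 from limma). Precursor and premyelinating genes were divided, with 2 of 10 higher, namely the precursor genes Ptprz1 (1.77, adjusted p = 1.15e-11 from limma) and Pdgfra (0.60, adjusted p = 4.11e-05 from limma), and 4 lower, among them the premyelinating gene Enpp6 (-2.12, adjusted p = 1.22e-05 from limma) and Neu4 (at least 2.77-fold, adjusted p = 7.43e-06 from limma). At the neuronal stage, 15 of 20 tested genes of the myelin sheath and paranode list were on the higher side and 2 on the lower side (median 1.67). Of the other lists, 4 of 7 lipid enzymes, 10 of 11 transcription factors and 9 of 10 precursor and premyelinating genes were on the higher side and none on the lower (medians 2.99, 2.00 and 2.57, beside 0.01 over all probes). Of all 20893 probes tested at that stage, 2908 were on the higher and 2824 on the lower side.

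**Figure D4:**
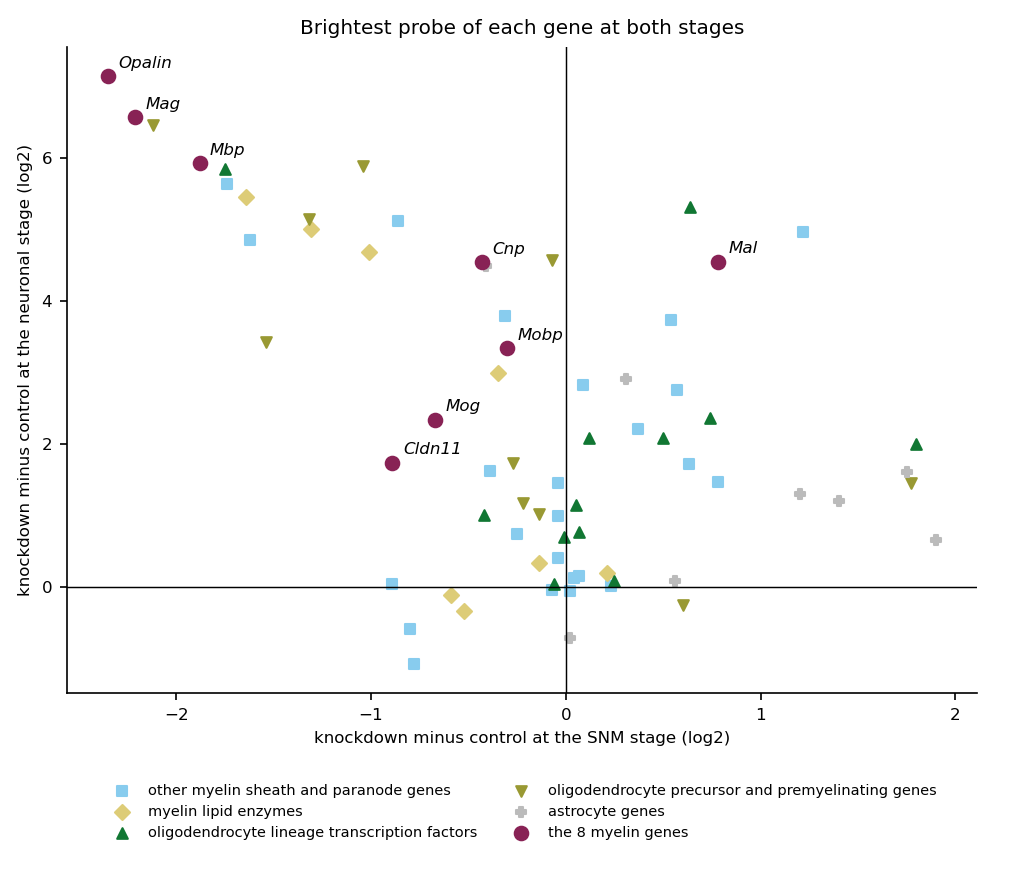
Difference between HPRT-knockdown and control cells (log2) at the SNM stage (horizontal axis) and at the neuronal stage (vertical axis) for the brightest probe of each gene of the lists, with the 8 myelin genes named. Opalin, Mag and Mbp lie at the upper left with -2.35, -2.21 and -1.88 on the horizontal axis, and Mal lies to the right of 0.

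Markers of other cell types also differed between the conditions, and their part in the myelin results was not tested. In bulk RNA, more cells of a type and more RNA per cell cannot be told apart. Of all probes tested at the SNM stage, 11% were called higher and 8.9% lower in knockdown cells. Of 8 astrocyte genes, 4 were higher and none lower in knockdown SNM cells, with a summed normalized signal of 14200 to 15700 on control and 21100 to 21900 on knockdown arrays. Of 11 tested skeletal muscle genes 8 were higher and none lower (summed signal of 12 genes 3040 to 3120 and 5230 to 5580), 3 of 7 tested neuron genes were lower (9 genes, 4870 to 5180 and 4020 to 4130), and 4 of 6 pluripotency genes were lower (4440 to 4770 and 2940 to 3060). The summed signal of the 8 myelin genes was 7420 to 7810 on control and 2960 to 3090 on knockdown arrays.

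At the neuronal stage the lists moved much further. Among all 20893 probes tested, 2908 were called higher and 2824 lower in knockdown cells. All 12 muscle genes were lower in knockdown cells, from a summed signal of 103000 to 105000 down to 537 to 737, where 7 of the 12 were still detected on all arrays. Of 7 tested neuron genes 6 were lower (7580 to 8320 and 1330 to 1360), and Snap25 and Nefl were detected on no array of either cell type. Of 8 astrocyte genes 6 were higher and 1 lower (12800 to 14100 and 17400 to 17700). The myelin sum was 7830 to 8010 on control arrays, most of it from Cldn11 with a log2 signal of 12.84, and 57900 to 59200 on knockdown arrays.

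Of 9 fibroblast genes, 4 were higher and none lower in knockdown cells at the SNM stage (summed signal 7380 to 8250 on control and 9290 to 11000 on knockdown arrays), and 7 were on the lower side at the neuronal stage (23000 to 26600 and 12600 to 16300). Among genes of Schwann cells and peripheral myelin, 3 of 7 tested were lower and none higher at the SNM stage (median -0.33). At the neuronal stage 2 of 8 tested were on the higher and 1 on the lower side (median 0.24). The summed signal of this list was 2370 to 2420 and 1910 to 2000 on control and knockdown SNM arrays. On neuronal arrays it was 2650 to 2780 and 2410 to 2610. Of 8 microglia and macrophage genes 2 were detected well enough to be tested at either stage and none was called, with summed signals of 183 to 205 over all SNM and neuronal arrays.

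**Figure D5:**
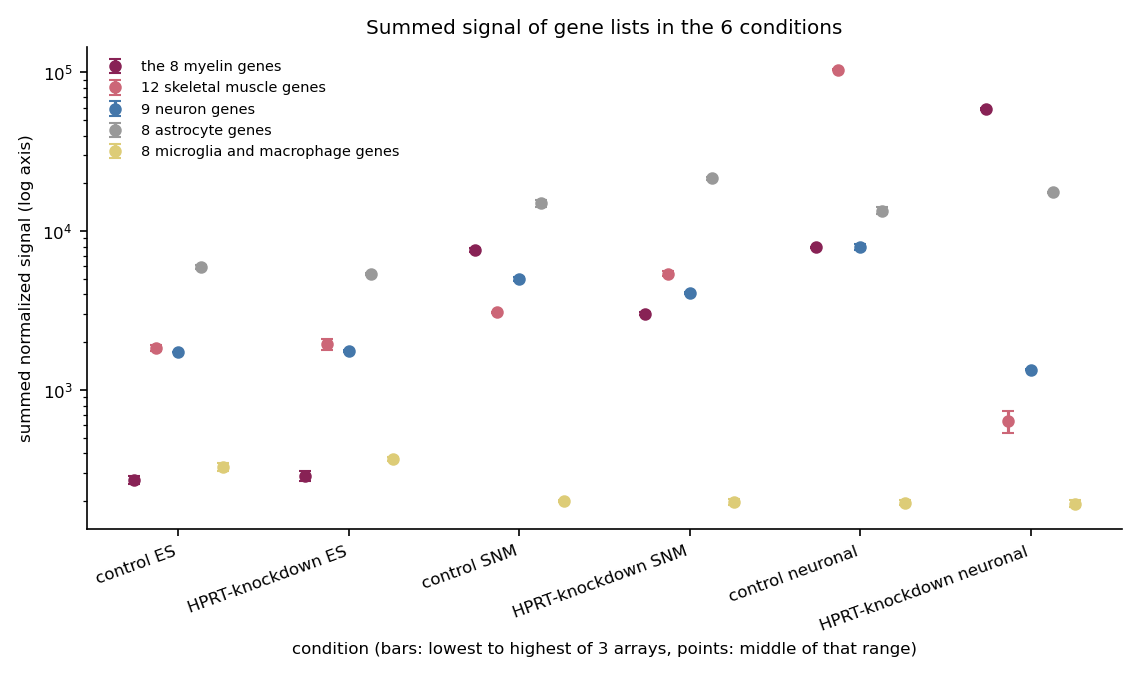
Summed normalized signal (vertical log axis, offset included) of the brightest probes of 5 gene lists in the 6 conditions (horizontal axis), with bars from the lowest to the highest of 3 arrays. The myelin sum is 57900 to 59200 in knockdown neuronal cells, where the muscle sum is 537 to 737, against 103000 to 105000 in control neuronal cells.

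Across all 18 arrays, the gene whose signal ran most like the mean of the 8 genes (z-scored brightest probes) was C4a, a complement gene with a near-identical copy that the probe may not separate, with a Pearson r of 0.996. S100a16 (0.990), Prkcq (0.988), S100a13 (0.988) and Plxnb3 (0.987) followed among 3774 symbols that spanned at least 2 on the log2 scale, and the myelin gene Pllp (0.984) was also among the 10 highest. Among the 8 genes themselves, r with their own mean was 0.976 to 0.978 for Mag, Cnp and Opalin and lowest for Cldn11 (0.778) and Mobp (0.731). Each of the 8 is itself part of that mean, so a high r was partly built in. The 18 points are 6 clusters of 3 arrays from shared RNA pools, and the knockdown neuronal arrays weigh heavily in every r.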

How the data were processed

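The authors deposited a table with the signal intensity of each probe on each array, non-normalized, and a second deposited table that supplied the probe annotation. Each intensity comes with a detection p-value that the authors' Illumina software made from negative-control beads. Of the second table, 72 columns of per-sample values are named by chip and position, could be tied to no sample and were left unused. The version of the scanner software and the genome build behind the array's probe annotation were not given in the sources used here. Conditions and array numbers came from the sample titles, and no arrays held identical values.

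The neqc function of limma 3.58.1 (R 4.3.3, offset of 16) corrected and normalized the signals. A single linear model over the 18 arrays, with a term for each of 6 conditions, gave all limma tests (lmFit, then eBayes). The study's methods used paired and unpaired t-tests, of which the unpaired test was run as an alternative. A probe was tested where all 3 arrays of at least 1 condition compared detected it at p under 0.05, and called at an adjusted p-value under 0.05 and 1.5-fold. All tests were two-sided, and an exact permutation test of 3 against 3 arrays could not give a p under 0.10. Where a condition did not detect a probe on all arrays, the fold is a bound, set against the higher of the lowest detected signal and the probe's own signal on each array. The code was tested on simulated data with known changes.

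The genes, the gene lists and the tests were chosen with earlier results of these data known. The brightest probe over all arrays represents a gene. From each further list, at most 4 genes are named: those that rose and fell most at the SNM stage among called ones. Some genes of the lists are not named here. The list of most similar genes holds the 10 with the highest Pearson r, of which 6 are named. Symbols are those of the array annotation. Promoter windows were matched by symbol.

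Array numbers come from the titles, which name no shared batch. Same-numbered knockdown and control SNM arrays deviated together from their condition means, with correlations across probes of 0.486, 0.108 and 0.489, and the number was run as a block. At the ES stage these were -0.0938, 0.0254 and 0.0959, and at the neuronal stage 0.605, 0.0938 and 0.325. The alternatives were other normalizations, other detection filters, an offset of 50, separate fits, a minimum of 2-fold, and leaving out each array number in turn. The 3 arrays of 1 pool limit the precision of each mean to array error.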

Additional observations from a re-analysis of the deposited data

Results flagged for a closer look

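For 5 of 7 genes tested, the effect of the knockdown differed between the ES and SNM stages by the limma test of that difference. Of all 22125 probes so tested, 9.61% were called lower. Mbp, Mag and Opalin, at background in ES cells, entered through their SNM signal. With detection required on all arrays compared, Cldn11 alone was called. As fitted on the log2 scale, the SNM effect minus the ES effect was -1.77 for Mbp (adjusted p = 1.66e-06 from limma), -2.25 for Mag (adjusted p = 4.24e-08 from limma), -2.02 for Opalin (adjusted p = 4.48e-08 from limma), -0.98 for Cldn11 (adjusted p = 0.000467 from limma) and -0.88 for Mobp (adjusted p = 8.27e-05 from limma).

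On the brightest probe of each of 7 genes, every knockdown array lay below every control array at the SNM stage and above every control array at the neuronal stage. The share of all probes with such a reversal was not counted, so nothing is read from this number. The third Mbp probe differed by -0.21 at the SNM stage and by 0.37 at the neuronal stage. As fitted on the log2 scale, the neuronal effect minus the SNM effect was 9.49 for Opalin, 8.79 for Mag, 7.81 for Mbp, 4.97 for Cnp, 3.64 for Mobp, 3.00 for Mog and 2.63 for Cldn11. The values for Opalin, Mobp and Mog include conditions in which not every array detected the probe, so their size is not exact. These differences were not tested, because the genes were selected on the neuronal stage. The SNM differences of Mobp and Cnp are under 1.5-fold. Mal was the gene without such a reversal, higher in knockdown cells at both stages.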

How the results depend on the processing

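Mbp, Mag, Opalin and Cldn11 remained lower in knockdown SNM cells under every normalization tried, with differences of -1.95 to -1.83, -2.27 to -1.83, -2.46 to -1.29 and -0.97 to -0.83 over all alternatives. With detection required on all arrays of both conditions, Opalin could not be tested and 3 genes were called lower at the SNM stage, and at a minimum of 2-fold Cldn11 was not called. Mal was the call that did not hold. No gene was called higher at the SNM stage under quantile normalization or 75th percentile scaling without background correction, without any scaling, with an offset of 50, at a minimum of 2-fold, or with detection required in both conditions. That last filter left 2 genes called higher from the ES to the SNM stage in control cells, 2 in knockdown cells and 1 gene with a lower SNM than ES effect, and 4 and 5 genes on the higher side in the 2 descriptions of knockdown neuronal cells, because genes at background in 1 condition leave the test. At a minimum of 2-fold, 3 genes had a lower effect. Without scaling or with detection in both conditions, the fall of Mobp in knockdown cells was not called (0 genes lower). The ES-stage difference of Cldn11 turned from 0.10 to -0.01 under 75th percentile scaling and ranged from -0.00 to 0.16 with 1 array number left out. With the array number as a replicate block, 4 genes were lower and 1 higher at the SNM stage and 5 had a lower effect, and no call of a gene changed. The methods' t-test gave the same numbers of genes, and was not run for the difference of effects. Leaving out 1 array number at a time gave 0 to 1 gene higher at the ES stage (Mobp without number 1 or 3, with 0.59 and 0.66), 0 to 1 gene lower in control SNM against ES cells (Mobp without number 2, -0.62), 0 to 1 gene with a higher effect (Mal without number 2, 0.78), 4 to 5 genes lower at the SNM stage, 5 to 6 genes with a lower effect and 5 to 6 genes higher in control SNM against ES cells. The causes of these shifts were not tested beyond the filters named. Signals near background, as for Mog, Mal and Mobp before the neuronal stage, limit what could be measured.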
